A study of Mus musculus with 96 samples.

Results

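The miR-30 family was followed here through 8 mature miRNAs: mmu-miR-30a-5p, mmu-miR-30b-5p, mmu-miR-30c-5p, mmu-miR-30d-5p, mmu-miR-30e-5p, mmu-miR-30a-3p, mmu-miR-30d-3p and mmu-miR-30e-3p, written from here on without the species prefix. They were taken by name, without reference to their levels, from tables that list 1978 mature miRNAs, of which 1561 had at least 1 count in 1 of the 96 libraries. All 8 members were detected and all 8 passed the filter on low counts in each cell type. Small RNA was sequenced from adult male C57Bl/6J mice after myocardial infarction (MI) made by permanent ligation of a coronary artery, at day (D) 1, 3, 7, 14 and 28, and from mice without MI (D0). At each of these 6 times, cardiomyocytes (CMs) were enriched from the digested heart by centrifugation, hematopoietic cells (HCs) by beads against CD45, endothelial cells (ECs) by beads against CD144, and fibroblasts (FBs) as the adherent, predominantly DDR2-positive cells. In the 24 groups, each of the 4 libraries had its own RNA pool of 3 mice, or 2 where a sample was missing. The pools of the 4 cell types at one time came from the same mice. D0 mice had no operation, so surgery and infarction cannot be told apart. RNA input and PCR cycles differed by cell type, with FBs and HCs alike, so that library preparation and cell type cannot be told apart either.

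A miRNA hairpin is cut into 2 short strands, the 5p and the 3p arm, and each can be loaded into an Argonaute protein that then represses transcripts pairing with the seed near the strand's 5′ end. The 5p arms of the miR-30 family share 1 seed and are therefore expected to share many targets, while the 3p arms carry another seed. The family is abundant in heart muscle and in endothelium, and has been studied for its effects on fibrosis, apoptosis, autophagy and vessel growth. Its hairpins lie in clusters, so that several members can be cut from a common primary transcript.

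The mature sequences are shown because the seed defines the family and because near-identical arms limit how reads can be divided among members. They are given 5′ to 3′ from RefSeq (GRCm38.p6), which matched 5 of the 8 members and 5 of 6 relatives by name, with the seed (bases 2 to 8) in capitals. miR-30b-5p, miR-30d-5p and miR-30d-3p were analysed by name only.
miR-30a-5p: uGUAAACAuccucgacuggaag
miR-30c-5p: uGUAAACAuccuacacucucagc
miR-30e-5p: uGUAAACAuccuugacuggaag
miR-384-5p: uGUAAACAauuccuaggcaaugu
miR-30a-3p: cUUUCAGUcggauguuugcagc
miR-30e-3p: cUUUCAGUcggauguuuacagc

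Among the 1679 listed miRNAs with a sequence, the 5p seed occurred in 4, the 3 members shown and miR-384-5p, and the 3p seed in 2, miR-30a-3p and miR-30e-3p. Counted from the 5′ end, miR-30a-5p and miR-30e-5p differ by C13U alone and miR-30a-3p and miR-30e-3p by G18A alone. miR-30c-5p differs from miR-30a-5p over its shared length by C13A, G14C, G18C, G19U and A20C. The members' counts were never a copy of another miRNA's, but some arms ran close together. The log2 ratio of miR-30a-5p to miR-30d-5p, the latter known by name only, was 0.12 ± 0.16 (SD, n = 96) and that of miR-30a-3p to miR-30e-3p 0.08 ± 0.23. For miR-30a-5p to miR-30e-5p, which differ by C13U alone, it was 0.91 ± 0.32. How the counting divided reads that match 2 near-identical arms is not given in the sources used here, so values of miR-30a-5p, miR-30d-5p and miR-30e-5p, and of miR-30a-3p and miR-30e-3p, are not independent measurements. miR-30b-5p and miR-30d-5p, by contrast, had a log2 ratio of -4.17 ± 1.32.

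In the GRCm38 annotation the hairpins lie at 3 places. Mir30a (chr1:23272269-23272339, + strand, in no other gene) and Mir30c-2 (chr1:23291701-23291784, + strand, in an exon of the lincRNA Gm27028) are 19361 bases apart on chromosome 1. Mir30c-1 (chr4:120769534-120769622) and Mir30e (chr4:120772606-120772697) are 2983 bases apart on the - strand of chromosome 4, both in introns of Nfyc, which encodes a subunit of a CCAAT-binding transcription factor. Mir30b (chr15:68337415-68337510, in no other gene) and Mir30d (chr15:68341208-68341289, in an exon of the lincRNA Gm20732) are 3697 bases apart on the - strand of chromosome 15. miR-30c-5p can come from either miR-30c hairpin, with the same mature sequence at both.

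The libraries held 18286 to 65588543 mature miRNA counts. In EC D28 replicate 3 (636084 counts), FB D0 replicate 2 (2217588) and HC D0 replicate 3 (18286), the library stood farthest from the others of its group, and results that rest on these are given also without them. The labelled cell types carried their own marker miRNAs: the 5 cardiomyocyte markers (miR-1a-3p, miR-133a-3p, miR-208a-3p, miR-208b-3p and miR-499-5p) made up 31.1% to 70.9% of mature counts in the CM libraries, and the 2 endothelial markers (both arms of miR-126a) 10.4% to 23.4% in the EC libraries. Of the cardiomyocyte markers, miR-1a-3p alone made up 29.2% to 70.7% of mature counts in the CM libraries. The 3 fibroblast markers (both arms of miR-199a and miR-214-3p) made up 4.06% to 8.89% in the FB libraries. The 4 hematopoietic markers (miR-223-3p, both arms of miR-142a and miR-150-5p) made up 0.682% to 2.57% in the HC libraries. The endothelial markers made up 1.48% to 9.18% there and the cardiomyocyte markers 2.6% to 13.2%. The hematopoietic mean was below both at each time except D3. At D3 it was 2.07%, beside 1.87% for the endothelial and 4.91% for the cardiomyocyte markers. The 2 red blood cell markers (miR-451a and miR-144-3p) reached at most 0.141% of a library. These are bulk libraries, in which fewer cells of a type and less RNA per cell cannot be told apart.

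The family was among the most abundant in all 4 cell types. The 5p arms together made up 12.0% ± 3.15 (SD, n = 24 libraries) of mature counts in ECs, 7.31% ± 2.73 in CMs, 7.29% ± 1.75 in HCs and 4.73% ± 0.874 in FBs. miR-30a-5p and miR-30d-5p led in every cell type, at 42606 ± 11793 and 38973 ± 10047 CPM (mature counts scaled to 1e+06 per library) in ECs, 25548 ± 6554 and 25926 ± 6722 in HCs, 22249 ± 8672 and 17277 ± 5105 in CMs, and 16637 ± 3296 and 15902 ± 2952 in FBs. The median rank of miR-30a-5p among all mature miRNAs was 5.5 in CMs, 6 in ECs, 12 in HCs and 21 in FBs. miR-30e-5p followed in ECs at 26694 ± 9414 CPM, against 14915 ± 7102 in CMs, 10185 ± 3208 in HCs and 8726 ± 2229 in FBs.

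The make-up of the 5p pool differed between the cell types. miR-30c-5p supplied 20.7% of the 5p counts in CMs but 8.99% in ECs, and miR-30b-5p 4.41% in CMs, 2.73% in HCs, 1.34% in ECs and 1.08% in FBs. These are means over all days: at D0 the share of miR-30b-5p was lowest in CMs, at 0.725% ± 0.593 (SD, n = 4), beside 0.831% ± 0.156 in FBs, 1.12% ± 0.211 in HCs and 1.26% ± 0.312 in ECs, and the CM range overlapped that of each other cell type. miR-30b-5p was the least abundant 5p arm throughout, at 3785 ± 2757 CPM in CMs and 503 ± 213 in FBs. Of the 3p arms, miR-30a-3p and miR-30e-3p lay near each other, between 1076 and 2353 CPM for the former and between 979 and 2353 for the latter as cell type means. miR-30d-3p was the rare strand of an abundant hairpin, at 44.2 CPM in CMs, 36.5 in HCs, 20.9 in ECs and 14.2 in FBs.

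**Figure D1:**
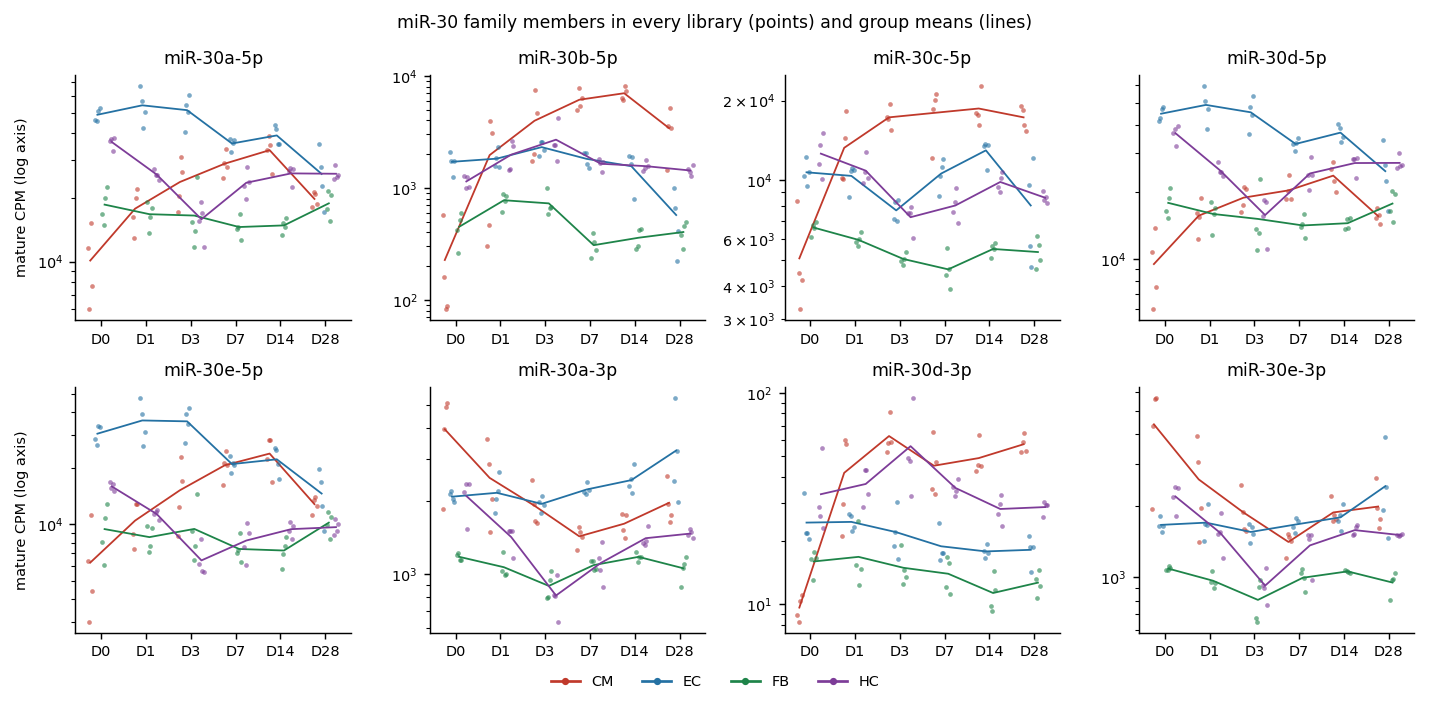
Level of each of the 8 members in CPM (log axis) against day after MI in the 4 cell types. Each point is 1 library and lines join the means of 4 libraries per day. The 5p arms of miR-30a and miR-30d lie highest in ECs at most days, miR-30b-5p in CMs runs from 226 CPM at D0 to 7007 at D14, and miR-30d-3p stays below 100 CPM.

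With libraries scaled by TMM, which sets the factor from the bulk of miRNAs instead of the total, the quasi-likelihood test of edgeR, adjusted by Benjamini and Hochberg's method, gave a difference for 43 of the 48 combinations of member and pair of cell types, averaged over days, where 76.3% of all 4272 combinations of a miRNA and a pair differed. By pair these shares were 69.4% for CMs and ECs, 75.7% for CMs and FBs, 77.7% for CMs and HCs, 71.8% for ECs and FBs, 77.7% for ECs and HCs and 85.7% for FBs and HCs. On this scale, and averaged over days, every member was higher in CMs than in the other cell types, by 0.28 (miR-30d-5p) to 2.31 (miR-30d-3p) log2 units against ECs and by 1.63 to 3.95 against FBs and HCs. The difference between CMs and ECs was largest in miR-30d-3p and miR-30b-5p (2.13 ± 0.16, SE). On library size alone the order of CMs and ECs turned for miR-30a-5p (-0.99), miR-30d-5p (-1.19), miR-30e-5p (-0.90) and miR-30a-3p (-0.14), where miR-1a-3p filled on average 50.5% of a CM library and 7.29% of an EC library. Against HCs it turned for miR-30a-5p (-0.26) and miR-30d-5p (-0.60). miR-30b-5p, miR-30c-5p, miR-30d-3p and miR-30e-3p were higher in CMs than in ECs under both scalings, although at D0 alone miR-30b-5p was lower in CMs, with a difference of -0.27.

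ECs were above FBs in all 8 members under both scalings, on TMM by 0.71 ± 0.10 (SE, miR-30d-3p) to 1.82 ± 0.16 (miR-30b-5p) log2 units. ECs were above HCs in 7, most in miR-30e-5p at 2.15 ± 0.11, while miR-30d-3p differed by 0.06 ± 0.10 (adjusted p = 0.62) and, on library size, by -0.72. The EC excess of miR-30b-5p, 0.62 ± 0.15, turned to -0.15 on library size. FBs and HCs lay closest on TMM. miR-30a-5p, miR-30c-5p, miR-30d-5p and miR-30e-3p had differences of 0.04 ± 0.09, -0.15 ± 0.09, -0.04 ± 0.09 and 0.03 ± 0.12 log2 units between them, none past the threshold on TMM. In mean CPM each of these was lower in FBs than in HCs, at 16637 against 25548, 5518 against 9536, 15902 against 25926 and 979 against 1517. miR-30b-5p was lower in FBs than in HCs by a difference of -1.20 ± 0.15, miR-30d-3p by -0.66 ± 0.09. miR-30e-5p and miR-30a-3p were higher in FBs by 0.45 ± 0.10 and 0.30 ± 0.11, which turned to -0.18 and -0.32 on library size.

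HCs showed the most uniform change of the family after MI. In each library of D0, miR-30a-5p measured 37075, 37720, 32976 and 38126 CPM, and at D3 it measured 15594, 18982, 16999 and 11698. The 2 groups did not overlap, and the level at later days lay between them, at 24363, 28551, 25001 and 25582 CPM at D28. miR-30e-5p followed the same course, from 16813, 15586, 16406 and 15101 CPM at D0 to 6111, 8348, 5653 and 5590 at D3. It fell by 1.74 ± 0.16 (SE) on the log2 TMM scale at D3 (adjusted p = 1.8e-09, edgeR), and was still lower by 0.93 ± 0.16 at D28.

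A set of 6 members, the 5p arms of miR-30a, c, d and e and the 3p arms of miR-30a and e, fell in HCs at each of the 5 days on the TMM scale. For miR-30c-5p the D1 call was lost on library size (-0.22, adjusted p = 0.16, edgeR), without miR-1a-3p in the total (-0.24, adjusted p = 0.13) and with D1 and D0 fitted alone (-0.44, adjusted p = 0.101), and the D14 call held in 6 of the 8 fits that leave out 1 library. Over all miRNAs tested in HCs, 54.3%, 59%, 49.5%, 28.1% and 24% changed at D1, D3, D7, D14 and D28, and 28.9%, 28.1%, 19.6%, 12.8% and 11.3% fell. The median log2 fold change of the 8 members was -0.84, -1.64, -0.99, -0.73 and -0.76 at these days, beside -0.08, 0.02, 0.18, 0.05 and 0.08 over all tested miRNAs. At D3 the falls ranged from -1.25 ± 0.18 for miR-30c-5p to -1.86 ± 0.20 for miR-30a-3p (adjusted p = 1.45e-08, edgeR), the largest fall of a member in HCs. Over the 6 times together all 8 members changed in HCs, as did 73.5% of all miRNAs, and 32 of the 40 combinations of member and day were called, against 43% over all miRNAs. All 6 lay wholly below D0 at D3, where 39.6% of all miRNAs had groups that did not overlap.

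miR-30b-5p went the other way in HCs. It measured 1279, 1001, 1258 and 1024 CPM at D0 and 2393, 2406, 1741 and 4235 at D3, with no overlap. It rose by 0.77 ± 0.20 log2 units at D3 (adjusted p = 0.0019, edgeR), the largest rise of a member in HCs, where 30.9% of all miRNAs rose. miR-30d-3p rose with it at D3, by 0.52 ± 0.22 (adjusted p = 0.041), with 28.7, 26.3, 54.7 and 23 CPM at D0 and 49.0, 47.6, 32.6 and 94.6 at D3. These groups overlapped, since the D0 library of 54.7 CPM rested on 1 count, and the call held in 4 of the 8 fits that leave out 1 library.

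Counts of markers moved with these changes. The endothelial markers made up 7.23% of HC libraries at D0 (5.49% to 9.18%), 1.87% at D3 (1.48% to 2.15%) and 2.21% at D28, and both markers were detected throughout. The 5 cardiomyocyte markers went from 11% (8.58% to 13.2%) to 4.91% (3.85% to 6.47%) at D3, and the 2 mural cell markers, miR-143-3p and miR-145a-5p, from 2.65% to 0.586%. Of the cardiomyocyte sum, miR-1a-3p alone made up 10.8% of HC libraries at D0 and 4.83% at D3. The 4 hematopoietic markers went from 0.803% (0.682% to 1.00%) to 2.07% (1.47% to 2.5%) at D3. The part of RNA from other cells in the members' changes was not tested. Without the small D0 library, miR-30a-5p, miR-30e-5p and miR-30a-3p changed by -1.78, -1.84 and -2.02 log2 units at D3, and the number of changes past the threshold over the 5 days stayed 32 of 40.

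CMs had the largest single changes. miR-30b-5p measured 575, 161, 82.2 and 88.0 CPM at D0, 5009, 7776, 5402 and 6324 at D7, and 6382, 6072, 8179 and 7393 at D14. Every library of D7 and D14 was above every library of D0, where 58.7% and 55.6% of all miRNAs did not overlap on the TMM scale, and at D28 the level was 1443, 3580, 5184 and 3461 CPM. On the TMM scale miR-30b-5p rose at all 5 days, as on each other scaling tried, by 1.56 ± 0.54, 2.14 ± 0.55, 2.45 ± 0.56, 2.36 ± 0.55 and 2.09 ± 0.55 log2 units (SE), with adjusted p = 0.00053 at D7 (edgeR), the largest rise of a member in CMs. The D1 libraries were split, at 301, 468, 3952 and 3121 CPM, and the D1 call held in 3 of the 8 fits that leave out 1 library.

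miR-30a-3p and miR-30e-3p fell together in CMs. miR-30a-3p measured 1851, 3991, 4902 and 5113 CPM at D0 and 1772, 1522, 1404 and 1757 at D14, so that every D14 library was below every D0 library, with D0 replicate 1 standing low. miR-30e-3p measured 1940, 4333, 5639 and 5671 CPM at D0 and 1212, 1521, 1481 and 1427 at D7. On the TMM scale miR-30a-3p fell at all 5 days, by 1.62 ± 0.43, 2.95 ± 0.45, 3.78 ± 0.46, 3.90 ± 0.47 and 2.62 ± 0.44 log2 units. miR-30e-3p fell by 1.70 ± 0.45, 3.13 ± 0.48, 3.95 ± 0.49, 3.84 ± 0.49 and 2.75 ± 0.47, and its D7 value (adjusted p = 7.04e-07, edgeR) was the largest fall of a member in any cell type. Both falls were past the threshold at every day on each scaling tried, though smaller on library size, at -1.30 and -1.23 for D14. At D1 they were past it in 7 and 6 of the 8 fits that leave out 1 library.

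The direction of the abundant 5p arms in CMs depended on the scaling, at all 5 days for miR-30a-5p, miR-30d-5p and miR-30e-5p and at D3, D7 and D14 for miR-30c-5p. In CPM the abundant 5p arms, of miR-30a, c, d and e, were all higher at D14 than at D0 on average, with miR-30a-5p going from 11634, 5974, 15196 and 7655 at D0 to 33465, 38748, 35474 and 25938 at D14, and their share with miR-30b-5p went from 3.12% ± 1.13 (SD, n = 4) to 10.7% ± 1.05. On the TMM scale at D14 they had log2 fold changes of -0.88 ± 0.26 (miR-30a-5p), -0.72 ± 0.27 (miR-30c-5p), -1.29 ± 0.28 (miR-30d-5p) and -0.67 ± 0.30 (miR-30e-5p, adjusted p = 0.054), against 1.72, 1.88, 1.32 and 1.94 on library size. The D0 libraries had TMM factors of 0.289 to 0.357 in a range of up to 2.04 over CMs. On library size the median miRNA rose by 1.42, 2.37, 2.67, 2.99 and 1.99 log2 units at the 5 days, and on the TMM scale by 0.20, 0.44, 0.35, 0.41 and 0.25. On both scales the median of the members lay below that of all miRNAs, at 1.80 against 2.99 at D14 on library size and -0.80 against 0.41 on TMM.

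**Figure D2:**
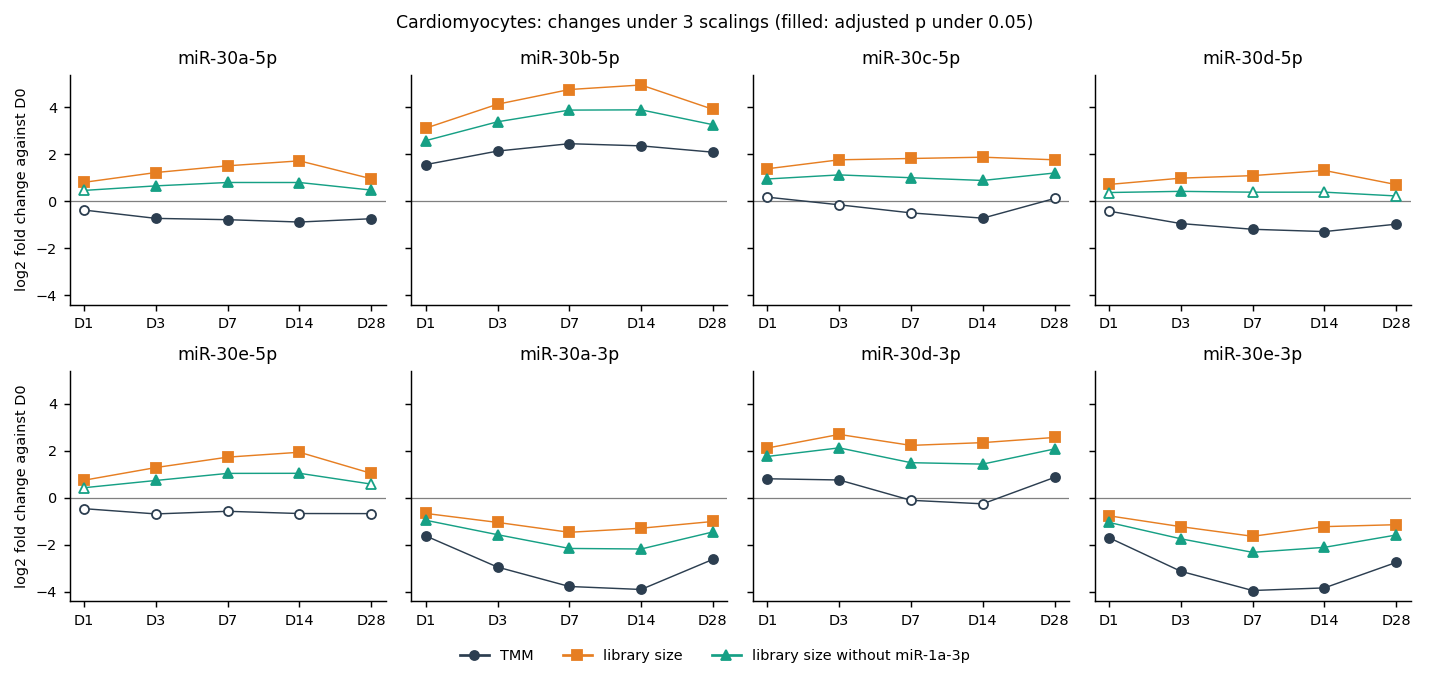
Log2 fold change of each member against D0 in CMs at 5 days, under TMM, under library size and under library size without miR-1a-3p. miR-30b-5p lies above 0 and miR-30a-3p and miR-30e-3p below 0 under all 3 scalings, while the abundant 5p arms change sign between TMM and library size, except miR-30c-5p at D1 and D28.

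Over all miRNAs tested in CMs, 25%, 55.2%, 69%, 67.1% and 54.3% changed at D1, D3, D7, D14 and D28, beside 4, 6, 5, 6 and 6 of the 8 members. On this TMM scale 13.6%, 31.8%, 38.8%, 38% and 29.5% rose, beside 2, 2, 1, 1 and 2 members, and 11.4%, 23.3%, 30.2%, 29.1% and 24.8% fell, beside 2, 4, 4, 5 and 4. Over the 6 times together 7 members changed, all but miR-30e-5p, as did 73.8% of all miRNAs, and 27 of the 40 combinations of member and day were called, against 54.1% over all miRNAs. The rare strand miR-30d-3p rose at D1, D3 and D28 by 0.81 ± 0.22, 0.76 ± 0.22 and 0.87 ± 0.22 log2 units, from 8.85, 8.28, 10.4 and 11 CPM at D0 to 52.3, 58.5, 64.9 and 52.9 at D28. These 3 rises were past the threshold on each scaling tried and in all 8 fits that leave out 1 library. At D7 and D14 its log2 fold change was -0.11 and -0.26 on TMM, not past the threshold, but 2.23 and 2.35 on library size. Markers moved in CMs too. The cardiomyocyte markers summed to 65.9% (60.3% to 70.9%) at D0, 37.4% (31.1% to 42.0%) at D14 and 53.6% at D28. Of this sum miR-1a-3p alone made up 65.7%, 35.3% and 52.1% of mature counts, so the sum mainly followed this miRNA. The small remainder, from the other cardiomyocyte markers, was larger at D14 than at D0. The endothelial markers went from 0.692% to 2.40% and the fibroblast markers from 0.00566% to 0.189% at D14. The part of these shifts in the members' changes was not tested.

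ECs changed late. miR-30b-5p measured 2103, 1741, 1261 and 1727 CPM at D0 and 991, 660, 223 and 410 at D28, with no overlap (32.1% of all miRNAs), and fell by 1.53 ± 0.33 log2 units at D28 (adjusted p = 0.00042, edgeR), the largest fall of a member in ECs. miR-30e-5p fell with it by 1.05 ± 0.25, from 28776, 26666, 33518 and 33377 CPM to 19876, 16937, 12519 and 9209, again with no overlap. miR-30a-5p and miR-30d-5p fell by 0.91 ± 0.21 and 0.84 ± 0.21 at D28, and at D7 the same 3 abundant arms fell by 0.81 to 0.90. At D28 20.2% of all miRNAs tested in ECs fell, 26.8% rose and 47% changed in all, beside 4, 2 and 6 of the 8 members. At D7 4.75% fell, beside 3 members. For changes in either direction at D1, D3, D7 and D14 the shares were 0%, 17.6%, 22.6% and 14.5%, beside 0, 0, 3 and 0 members. Over the 6 times together 6 members changed in ECs, as did 58.2% of all miRNAs, and 9 of the 40 combinations of member and day were called, against 20.3% over all miRNAs. At D1, D3 and D14, where edgeR called 0 members, 0, 0 and 4 of them had an unadjusted p under 0.05, and DESeq2 called 0, 1 and 4. The D7 calls were lost on library size, with adjusted p = 0.073 for miR-30a-5p.

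The 3p arms of miR-30a and miR-30e stood against the 5p arms in ECs at D28. miR-30a-3p rose by 0.71 ± 0.24 (adjusted p = 0.016), the largest rise of a member in ECs, and miR-30e-3p by 0.61 ± 0.24 (adjusted p = 0.037). miR-30a-3p measured 2134, 2193, 2033 and 1989 CPM at D0 and 2427, 5342, 3210 and 1980 at D28. The groups overlapped through the last D28 library, while the other 3 lay above every D0 library. The D28 libraries all lay far from each other, at mean distances of 1.67, 1.71, 1.90 and 1.69 from the rest of their group on log2 TMM levels. At D0 these distances were 0.63, 0.59, 0.58 and 0.65. Without the farthest D28 library, replicate 3, both 3p calls were lost, at 0.60 (adjusted p = 0.051, edgeR) and 0.50 (adjusted p = 0.0999). Each call held in 2 of the 8 fits that leave out 1 library, and the lowest of these fits gave 0.02 for miR-30a-3p and -0.06 for miR-30e-3p. The falls of the 5p arms of miR-30a, b, d and e held in all 8 fits. At D28 the endothelial markers made up 15% of EC libraries (10.4% to 22.4%), beside 19.8% (17.5% to 21.5%) at D0, and the mural cell markers 2.24% to 10.2%. Their part in the D28 values was not tested.

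FBs changed least in size. miR-30c-5p measured 6133, 6796, 6611 and 6982 CPM at D0, 4977, 4792, 5050 and 5362 at D3 and 4383, 5535, 4631 and 3893 at D7. Both later groups lay wholly below D0, where 36.6% and 37.8% of all miRNAs did not overlap, and miR-30c-5p fell by 0.72 ± 0.13 at D3 and 0.75 ± 0.13 at D7 (adjusted p = 7.68e-05 and 6.18e-05, edgeR). miR-30b-5p had the largest fall, 0.77 ± 0.23 at D7 (adjusted p = 0.0069), from 420, 259, 516 and 598 CPM at D0 to 234, 391, 326 and 277. These groups overlapped, and the call held in 4 of the 8 fits that leave out 1 library. At D1 miR-30b-5p measured 607, 884, 755 and 853 CPM, all above D0. On the TMM scale the D1 and D0 groups overlapped, where 17.1% of all miRNAs did not. Its log2 fold change of 0.61 ± 0.22 did not pass the threshold (adjusted p = 0.088, edgeR). Over all miRNAs tested in FBs, 7.99%, 43%, 45.6%, 24.7% and 6.75% changed at the 5 days, beside 0, 5, 6, 1 and 0 members, all of which fell. The share that fell was 20.1% at D3, 21.1% at D7 and 10.3% at D14. Over the 6 times together 7 members changed in FBs, as did 68.2% of all miRNAs, and 12 of the 40 combinations of member and day were called, against 25.6% over all miRNAs.

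Of the 12 changes called in FBs over the 5 days, 4 held under every scaling and every fit without 1 library: miR-30c-5p at D3 and D7, and miR-30a-3p (-0.72 ± 0.13) and miR-30e-3p (-0.75 ± 0.15) at D3. Leaving out 1 library moved the number of FB changes to between 4 and 17. Without the D0 library that stood apart, 7 changes were called, and miR-30c-5p changed by -0.59 at D3 and -0.62 at D7. The cardiomyocyte markers were at most 0.583% of an FB library. At D1 and D28 edgeR called 0 members, 4 and 0 of which had an unadjusted p under 0.05, and DESeq2 called 0 at both.

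**Figure D3:**
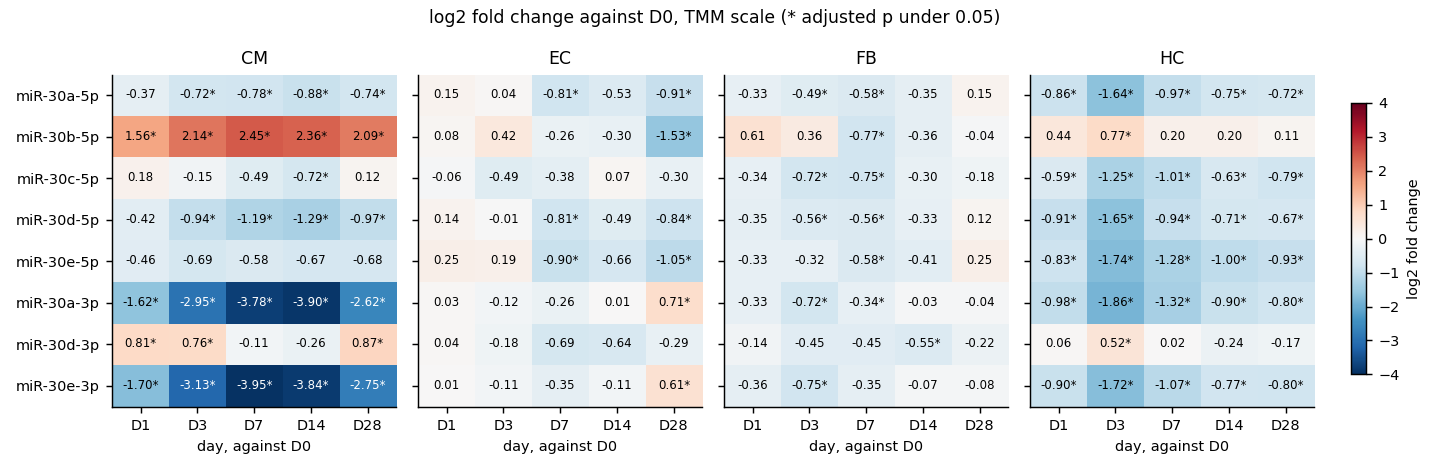
Log2 fold change against D0 of the 8 members at 5 days in the 4 cell types, on the TMM scale, with calls marked. In HCs the 6 members other than miR-30b-5p and miR-30d-3p lie below 0 at every day, and in CMs miR-30b-5p and the 3p arms of miR-30a and miR-30e stand farthest from 0. The CM values of the other 5p arms turn sign on library size, except miR-30c-5p at D1 and D28.

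The time course of each of the 8 members differed between the cell types, by an interaction test over all 96 libraries (edgeR, adjusted p from 0.00205 for miR-30c-5p to 3.1e-13 for miR-30a-3p). This was so for 76.3% of the 712 miRNAs tested. Set against the mean of the 3 other cell types, the change in CMs was largest for miR-30a-3p at D14, -3.36 ± 0.34, and miR-30b-5p at D7, 3.06 ± 0.45. This test was passed in CMs by 44.8% of all miRNAs at D7 and 43.8% at D14. The change of miR-30b-5p in ECs at D28 differed from the mean of the others by -2.52 ± 0.44, and in CMs at D28 by 2.82 ± 0.45, and 39.9% and 39.6% of all miRNAs passed. HCs differed most at D3, by -1.65 ± 0.29 for miR-30e-5p and -1.43 ± 0.25 for miR-30a-5p, with 33.7% of miRNAs past the threshold. At D28 FBs differed by 0.83 ± 0.25 for miR-30a-5p and 1.01 ± 0.29 for miR-30e-5p, where 10.1% of miRNAs passed. Both FB values were lost on library size, at 0.17 (adjusted p = 0.65, edgeR) and 0.36 (adjusted p = 0.35), and without the farthest libraries, at 0.71 (adjusted p = 0.074) and 0.80 (adjusted p = 0.082). Their reference holds the CM changes of these arms, whose direction depended on the scaling. The CM values above stayed past the threshold on library size, at -1.17 for miR-30a-3p at D14 and 4.73 and 4.38 for miR-30b-5p at D7 and D28. Each of these values takes the 3 other cell types as its reference, so that values of 2 cell types are not independent.

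The ratio of the 5p to the 3p arm is the same under every library scaling, and was computed for the 3 hairpins with both arms among the members. In CMs miR-30a went from log2 ratios of 2.65, 0.58, 1.63 and 0.58 at D0 to 4.24, 4.67, 4.66 and 3.88 at D14, with no overlap. miR-30e went from 1.72, -0.52, 0.99 and -0.37 to 3.36, 4.02, 3.95 and 3.27, so that 2 D0 libraries held more of its 3p than of its 5p arm. The 5p arm of both gained on the 3p arm at all 5 days, most for miR-30e at D7, by 3.41 ± 0.52 log2 units (SE, adjusted p = 1.3e-05, limma), where 70.7% of hairpins changed, as did 72.7% at D14. miR-30d moved the other way, from 10.25, 9.49, 10.37 and 9.40 at D0 to 8.20, 8.18, 7.93 and 8.08 at D28, a difference of -1.78 ± 0.33 (adjusted p = 0.00012), where 67.7% changed. Over the days all 3 hairpins changed in CMs, where 70.7% of the 99 hairpins tested did, and 2 in ECs and 1 in HCs, where 40.4% and 15.8% did.

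In ECs, the ratios of miR-30a and miR-30e were lower at D28 than at D0, by -1.50 ± 0.29 and -1.56 ± 0.30 (both adjusted p = 0.00059, limma), where 38.5% of hairpins changed. The miR-30a ratios were 4.44, 4.38, 4.66 and 4.73 at D0 and 3.87, 2.38, 2.82 and 3.11 at D28, and did not overlap. In HCs the ratios of miR-30a and miR-30e did not pass the threshold over the days (both adjusted p = 0.69, limma), with miR-30a between 4.13 ± 0.19 (SD, n = 4) at D0 and 4.41 ± 0.23 at D7, although both of its arms fell. miR-30d in HCs went from 10.32, 10.52, 8.61 and 10.74 at D0 to 8.31, 8.59, 9.11 and 6.87 at D3, a difference of -1.83 ± 0.41 (adjusted p = 0.0030), with 22.4% of hairpins changed. These groups overlap through the D0 library with 1 count of miR-30d-3p, and the change over the days was not past the threshold with a pseudocount of 5 or without D3 replicate 1 or 4. In FBs limma called 0 of the 3 ratios over the days, where 49.7% of hairpins changed, and 1, miR-30e, had an unadjusted p under 0.05 (adjusted p = 0.052).

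**Figure D4:**
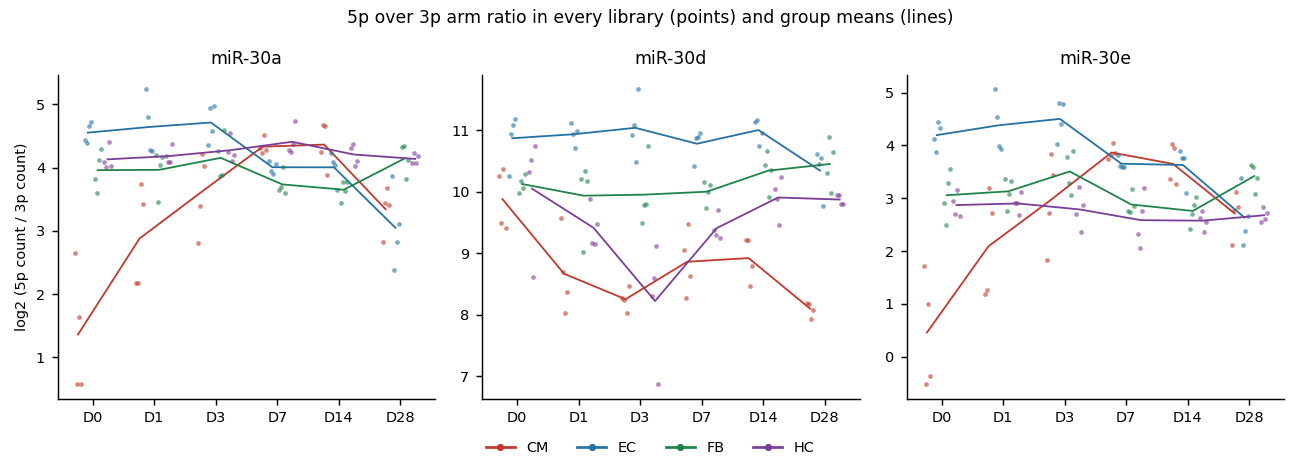
Log2 ratio of the 5p to the 3p arm count of miR-30a, miR-30d and miR-30e against day in the 4 cell types. Points are libraries and lines join means of 4. In CMs miR-30a and miR-30e run from means of 1.36 and 0.46 at D0 to 4.33 and 3.87 at D7, and in HCs their means lie between 4.13 and 4.41 for miR-30a and between 2.58 and 2.90 for miR-30e.

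Members of 1 cluster did not keep a fixed ratio. miR-30b-5p and miR-30d-5p come from hairpins 3697 bases apart, and their log2 ratio in CMs went from -4.23, -5.21, -7.39 and -6.41 at D0 to -1.90, -1.38, -2.14 and -1.56 at D7, with no overlap. In HCs it went from -4.85, -5.26, -4.64 and -5.27 at D0 to -2.70, -2.93, -3.37 and -1.39 at D3, and was -4.24 ± 0.18 (SD, n = 4) at D28. In ECs it was lowest at D28, at -5.59 ± 0.70, and in FBs it was higher at D1 and D3, at -4.37 ± 0.43 and -4.35 ± 0.54, than at D0, at -5.37 ± 0.35. Over the 6 days the ratio changed in all 4 cell types by a permutation test of the group means, with adjusted p over the 8 tests made of 0.0031 in CMs and FBs, 0.013 in ECs and 8e-05 in HCs, the last from the smallest p that 100000 resamples can give. In ECs the call was lost without the farthest library (adjusted p = 0.063, permutation test) and without replicate 2 of every group (adjusted p = 0.13), while in CMs, FBs and HCs it held in both.

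miR-30e-5p and miR-30c-5p, of which the first and 1 source of the second lie 2983 bases apart, changed against each other over the days in ECs only among the 4 cell types at the threshold (adjusted p = 0.0033, permutation test), and whether ECs differ from the others was not tested. Their log2 ratio in ECs was 1.47, 1.13, 1.81 and 1.64 at D0, 1.94, 2.23, 2.30 and 2.32 at D3 and 0.77 ± 0.28 (SD, n = 4) at D14. In CMs, FBs and HCs the adjusted p was 0.25, 0.16 and 0.13, and in HCs the ratio passed without replicate 2 of every group (adjusted p = 0.036, permutation test). For single days, an exact permutation test of 4 against 4 libraries cannot go below p = 0.0286, and of the 40 such tests 13 had an unadjusted p under 0.05 and 0 passed after adjustment, with 0.088 as the lowest adjusted p.

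**Figure D5:**
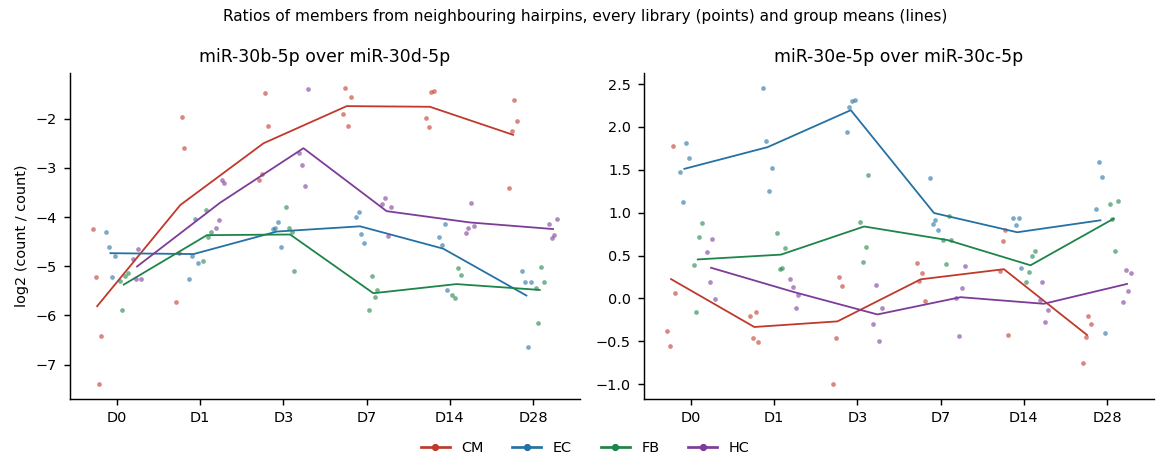
Log2 ratio of miR-30b-5p to miR-30d-5p and of miR-30e-5p to miR-30c-5p against day in the 4 cell types. Points are libraries and lines join means of 4. The first ratio is highest in CMs at D7 (-1.74) and D14 (-1.76) and in HCs at D3 (-2.60), and the second is highest in ECs at D3 (2.20).

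The other arms of the same hairpins were tested by the same fits, and their changes are given on the TMM scale alone. miR-30c-2-3p fell in CMs at all 5 days, most at D14 by 2.72 ± 0.29 log2 units (adjusted p = 1.47e-07, edgeR). In CPM it lay between 194 and 328 over all CM libraries, so that the size of this fall depended on the scaling. Its direction in CMs on library size is not given here. In HCs miR-30c-2-3p fell at all 5 days, most at D3 by 2.26 ± 0.22 (adjusted p = 4.56e-09, edgeR). It rose in ECs at D28 by 0.91 ± 0.26 (adjusted p = 0.0056, edgeR). miR-30a-3p, from the neighbouring hairpin on chromosome 1, also fell in CMs and HCs at all 5 days on the TMM scale. These comparisons use the same D0 libraries. The rise of miR-30a-3p in ECs at D28 was a call that held in 2 of the 8 fits that leave out 1 library. miR-30b-3p fell in CMs on the TMM scale at D3, D7, D14 and D28, by 0.73 to 1.74, on days when miR-30b-5p rose. In CPM miR-30b-3p lay between 17.5 and 53.6 over the CM libraries, and its direction on library size is not given here. miR-30c-1-3p rose in CMs at D1 and D28 by 0.69 and 0.74. miR-30f, miR-384-5p and miR-384-3p never exceeded 11, 9 and 4 counts in a library and were not tested.

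A second set of tables counts reads that matched a hairpin but no mature sequence, and was examined as a further measure of the same loci after the mature values were known. A read can be counted at several hairpins, with 1.17 to 2.40 counts per such read by library and medians from 1.35 in HCs to 2.03 in CMs. These counts made up a median of 41.3% to 68.9% of all counts at mir-30a, mir-30d and mir-30e by cell type. At mir-30b they made up 5.31% to 8.13%. These are shares of counts, not of reads. In CMs the reads of mir-30b rose at all 5 days on the TMM scale by 1.34 to 1.79 log2 units (edgeR), and those of mir-30c-1 by 1.51 to 1.94. The reads of mir-30d had changes of -1.37 to -2.30 from D3 to D28, all past the threshold, and were past it on library size at D7 (-0.72) and D14 (-0.84) alone. In all, 24 of 30 tests on 6 hairpins passed in CMs, where 28%, 56.8%, 67.8%, 69.5% and 53.1% of hairpins did at the 5 days. In ECs mir-30b fell by 1.48 ± 0.28 at D28 (adjusted p = 0.00014), where 60.1% of hairpins changed. In HCs the reads of mir-30a, mir-30d and mir-30e fell at all 5 days by 0.58 to 1.03, where 61.3%, 64.2%, 54.9%, 30.7% and 17.7% of hairpins changed, and those of mir-30b passed at no day. In FBs mir-30c-1 fell by 0.84 ± 0.14 at D7, where 43.6% of hairpins changed, and mir-30b rose by 0.67 ± 0.18 at D1, where 10.5% of hairpins changed. Counts of mir-30c-1 and mir-30c-2 share reads, as do those of mir-30e and the antisense mir-30f, which differed by at most 0.0174% in a library.

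The miRNAs whose mean level over the 24 groups was most like that of the summed 5p members were miR-378b, miR-1b-5p, miR-378a-3p, miR-1a-3p and miR-378c, with Spearman correlations of 0.90, 0.89, 0.88, 0.87 and 0.87 among 163 candidates. The 24 points share libraries and the TMM scale of 4 cell types, in which CMs lie highest, so these values mainly describe an order of cell types and carry no test. Of the 8 members, miR-30b-5p and miR-30d-3p were the least like the sum, at 0.73 and 0.74, and the other members had 0.94 to 0.99.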

How the data were processed

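Small RNA libraries were made with the NEBNext kit and processed by the authors with an nf-core small RNA pipeline. Trim Galore, Bowtie2 and SAMtools and the mouse build mm10 are listed in the submitters' processing notes, reads shorter than 18 bases were removed, and the authors removed 1 unnamed replicate each from EC D28, FB D0 and HC D0 in their own work. All 96 libraries were kept here. The deposited values are raw counts per mature miRNA, and in a second set of tables per hairpin. The counts line for reads that matched no mature sequence held 25.6% to 83.0% of a mature table and was left out of the mature counts. It includes the reads counted at hairpins. Every per-sample column belonged to a sample of the series, with 0 others.

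CPM were computed on mature counts. Each later day was set against D0 in 1 fit per cell type (24 libraries), and cell types and the interaction over all 96, with edgeR 4.0.16 (quasi-likelihood F test, TMM, filterByExpr, Benjamini-Hochberg, threshold 0.05) in R 4.3.3. This left 484 miRNAs tested in CMs, 421 in ECs, 563 in FBs, 608 in HCs and 712 over all. Arm ratios (log2, pseudocount 0.5, both arms at a mean of at least 10 counts) were tested with limma 3.58.1, and ratios of neighbours by permutation (100000 resamples) and exact permutation tests, two-sided. DESeq2 1.42.0, other scalings, filters and left-out libraries were the alternatives. The fits were tested on simulated data. Figures used matplotlib 3.10.9 under Python 3.11.15.

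All 8 members are named in every cell type, with full statistics for the largest rise and fall in each, and in addition the other arms and seed sharers, the marker lists, miR-1a-3p and the 5 miRNAs most like the summed 5p arms among those of at least 100 CPM. Members, relatives and marker lists were chosen with earlier results of these data known, and the hairpin tables were added after the mature values were seen. The study calls the 4 libraries of a group both biological and technical replicates. Its account of the pooling divides the RNA samples of a time and cell type into 4 pools. By that account p-values measure the spread between pools of different samples. The mice behind the 4 cell types of a time were shared, and the tests between cell types take the libraries as independent.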

Additional observations from a re-analysis of the deposited data

Results flagged for a closer look

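The time course of each of the 8 members differed between the 4 cell types in the interaction test of edgeR over 96 libraries. The adjusted p was 1.62e-06 for miR-30a-5p, 2.11e-07 for miR-30b-5p, 0.00205 for miR-30c-5p, 1.46e-06 for miR-30d-5p, 1.85e-06 for miR-30e-5p, 3.1e-13 for miR-30a-3p, 0.000407 for miR-30d-3p and 4.67e-13 for miR-30e-3p. As 76.3% of the 712 miRNAs tested also passed, a time course that differs between cell types was common in these data.

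In groups of 4, 1 library lay far from the other 3 by Dixon's ratio of the gap to the range in 17 of 312 groups examined, where chance alone gives about 1 in 20. In CPM 12 of 192 groups were marked. For miR-30b-5p in CMs at D0, replicate 1 was high at 575 against 82.2 to 161 (ratio 0.84), which is the group that the rise of miR-30b-5p in CMs is measured from. For miR-30d-3p replicate 3 was high in CMs at D14, at 63.1 against 42.7 to 45.5 (0.865), and replicate 1 in ECs at D0, at 33.6 against 20.4 to 21.7 (0.903), and at D7, at 24.1 against 16.2 to 17.5 (0.836). HC D14 replicate 3 was low in both miR-30a-5p, at 22411 against 26734 to 27559 (0.84), and miR-30d-5p, at 23122 against 28158 to 28363 (0.961), and HC D28 replicate 2 was high in miR-30d-5p, at 29822 against 25671 to 26298 (0.849). Among the 3p arms, HC D1 replicate 4 was low in miR-30a-3p, at 1163 against 1504 to 1512 (0.978), FB D1 replicate 2 was high in it, at 1238 against 993 to 1034 (0.836), and HC D7 replicate 4 was low in miR-30e-3p, at 980 against 1454 to 1515 (0.886). For miR-30c-5p, EC D1 replicate 1 was low at 8662 against 10839 to 11126 (0.883) and EC D14 replicate 3 at 10983 against 13498 to 13765 (0.904).

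The log2 arm ratio stood apart in 3 of 72 groups and the log2 ratio of neighbours in 2 of 48. The miR-30d arm ratio was low in EC D7 replicate 1, at 10.41 against 10.87 to 10.95 (ratio of gap to range 0.862), and in FB D1 replicate 2, at 9.02 against 10.17 to 10.34 (0.872), and the miR-30e arm ratio was high in EC D7 replicate 1, at 3.82 against 3.58 to 3.61 (0.872). EC D28 replicate 3, a shallow library, had the lowest ratio of miR-30b-5p to miR-30d-5p, at -6.64 against -5.32 to -5.10 (0.86), and EC D14 replicate 4 a low ratio of miR-30e-5p to miR-30c-5p, at 0.35 against 0.86 to 0.94 (0.868).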

How the results depend on the processing

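The number of the 40 combinations of member and day called in CMs (27) and HCs (32) stayed within 1.5 times under every alternative tried. Of these, 15 of 27 in CMs, 29 of 32 in HCs, 4 of 9 in ECs and 4 of 12 in FBs were past the threshold under all scalings and all fits without 1 library. In ECs the 9 became 15 with DESeq2, 14 with RLE size factors and 15 when the compared day and D0 were fitted alone. In FBs the 7 members that changed over the days became 2 on library size and 2 without miR-1a-3p, and the 12 became 6 on either of these, 6 with no filter and 7 without the farthest library. The 0 arm ratios of FBs became 1 with a pseudocount of 5, a minimum of 50 counts, the replicate block or without the farthest library, and the 1 of HCs became 0 with a pseudocount of 5. Leaving out 1 library gave 6 to 7 members changed over the days and 22 to 32 combinations in CMs, 4 to 8 and 7 to 16 in ECs, 4 to 7 and 4 to 17 in FBs and 6 to 8 and 30 to 33 in HCs. It gave 3 arm ratios in CMs, 2 in ECs, 0 to 1 in FBs and 0 to 1 in HCs, and leaving out 1 replicate number throughout gave 43 to 45 differences between cell types, 7 to 8 interactions and 5 ratios of neighbours. These 5 were not the same ones throughout: without replicate 2 the EC ratio of miR-30b-5p to miR-30d-5p was lost and the HC ratio of miR-30e-5p to miR-30c-5p gained, and without the farthest libraries 4 were called, the former being lost. The EC combinations were 14 without D3 replicate 1 or 4, D7 replicate 3 or D28 replicate 1, and 16 without D28 replicate 4. Those of FBs were 4 to 7 without D0 replicate 2, 3 or 4, D1 replicate 3, D3 replicate 1, 2 or 3, D7 replicate 1, 2 or 4, D14 replicate 1, 2 or 4, or D28 replicate 2 or 3. The FB arm ratio was called without D0 replicate 2 or 4, D1 replicate 2, D3 replicate 3, D7 replicate 3, D14 replicate 4 or D28 replicate 3. The HC arm ratio was lost without D3 replicate 1 or 4. The smallest group then has 3 libraries, which also loosens the filter on low counts. The cause of these shifts was not tested.

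In CMs directions reversed on scalings that follow the total, and those of 4 changes not past the threshold also on TMM in fits without 1 library, which gave -0.50 to 0.034 for miR-30a-5p and -0.59 to 0.12 for miR-30e-5p at D1, and -0.26 to 0.16 at D3 and -0.22 to 0.35 at D28 for miR-30c-5p. On library size, at D1, D3, D7, D14 and D28, the log2 fold change was 0.81, 1.23, 1.51, 1.72 and 0.96 for miR-30a-5p, 0.72, 0.99, 1.10, 1.32 and 0.71 for miR-30d-5p, and 0.75, 1.29, 1.73, 1.94 and 1.04 for miR-30e-5p. At D3, D7 and D14 it was 1.77, 1.82 and 1.88 for miR-30c-5p, and at D7 and D14 2.23 and 2.35 for miR-30d-3p. Without miR-1a-3p in the total it was 0.66, 0.80, 0.80 and 0.48 for miR-30a-5p and 0.43, 0.39, 0.39 and 0.23 for miR-30d-5p at D3, D7, D14 and D28, 1.13, 1.01 and 0.89 for miR-30c-5p and 0.74, 1.04 and 1.04 for miR-30e-5p at D3, D7 and D14, and 1.49 and 1.43 for miR-30d-3p at D7 and D14. In ECs at D28 the fits without 1 library gave -0.059 to 0.64 for miR-30e-3p.

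Between cell types, library size gave -0.99, -1.19, -0.90 and -0.14 for miR-30a-5p, miR-30d-5p, miR-30e-5p and miR-30a-3p in CMs less ECs, -0.26 and -0.60 for miR-30a-5p and miR-30d-5p in CMs less HCs, -0.15 and -0.72 for miR-30b-5p and miR-30d-3p in ECs less HCs, and -0.58, -0.18, -0.32 and -0.60 for miR-30a-5p, miR-30e-5p, miR-30a-3p and miR-30e-3p in FBs less HCs. Without miR-1a-3p the same differences were -0.059 and -0.26 for miR-30a-5p and miR-30d-5p in CMs less ECs, -0.14 and -0.70 in ECs less HCs, and -0.67, -0.27, -0.41 and -0.68 in FBs less HCs. With no filter miR-30d-3p was at -0.44 in ECs less HCs, and miR-30a-5p, miR-30a-3p and miR-30e-3p at -0.38, -0.12 and -0.39 in FBs less HCs. Without replicate 1, 2 or 3 of every group miR-30d-3p was at -0.48, -0.53 and -0.52 in ECs less HCs, and without replicate 4 at -0.029. There miR-30b-5p was at -0.061 without replicate 2 and 0.62 without replicate 4, and in FBs less HCs miR-30a-5p was at -0.36 without replicate 1, -0.24 without replicate 3 and -0.082 without replicate 4, miR-30a-3p at -0.095 and miR-30e-3p at -0.37 without replicate 1 and at 0.22 and -0.063 without replicate 4. In the D0 groups alone miR-30b-5p was at -0.27 in CMs less ECs, and miR-30a-5p, miR-30e-5p and miR-30a-3p at -0.54, -0.30 and -0.45 in FBs less HCs. The cause was not tested.

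Between libraries of different days with the same replicate number, the median correlation of deviations was 0.032 for CMs, -0.007 for ECs, -0.009 for FBs and 0.016 for HCs, over 60 pairs each. Such libraries come from different mice, so these values cannot show a pairing. Across cell types on one day it was 0.053 over 144 pairs of the same number, beside -0.015 for other numbers. A weak correlation between cell types cannot exclude that the same number stands for the same mice. With the number as a replicate block 26 combinations were called for CMs, 8 for ECs, 10 for FBs and 31 for HCs. Depth limits most the HC D0 library of 18286 counts, in which miR-30d-3p had 1 count and miR-30b-5p 23.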
